A study of Mus musculus with 6 samples.

Results

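The 42 genes described here act in G2 phase and mitosis and were chosen by name, from general knowledge of the cell cycle, as mitotic cyclins and kinases, kinetochore subunits, spindle motors and the machinery of anaphase. All 42 were found among the 56941 Ensembl identifiers of the count table by their GENCODE vM39 symbols, and all 42 were among the 13299 genes with enough counts for a test. RNA was sequenced from splenic CD8+ T cells of B6 mice, in 3 samples treated with vehicle and 3 treated with sphingosine-1-phosphate (S1P), a bioactive lipid whose receptors include S1PR1. The labels give no age for these mice. In both groups naive cells were activated on plates coated with antibodies to CD3 and CD28, with IL-2 in the medium, over 3 days. The labels give purified cells as the start, and the methods of the study also name unfractionated splenocytes. S1P at 5 µM, or vehicle, was added 24 h after activation began, so that each sample holds a dividing population and the measurement is a level in bulk RNA. A lower level in such a sample can come from fewer cells in mitosis, from less RNA per cell or from another mix of cell types. These cannot be told apart here.

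A cell enters mitosis when cyclin B binds and activates the kinase Cdk1, helped by the phosphatase Cdc25c and the kinase Plk1. Chromosomes then attach to spindle microtubules through kinetochores, and the spindle checkpoint holds the anaphase-promoting complex (APC/C) inactive by binding its activator Cdc20 until all are attached. Cdc20 and the APC/C then trigger destruction of cyclin B and of securin (Pttg1), which frees separase (Espl1) to cut cohesin. Activated CD8+ T cells are among the fastest dividing cells of the body, and RNAs of these genes accumulate in G2 and M phases under the MuvB complex, its partners B-Myb and Foxm1, and the CCAAT-binding factor NF-Y.

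Total counts per sample ranged from 12048880 to 17384084. The members were well covered, with counts between 156 (Cdc25c in S1P-treated replicate 2) and 37352 (Mki67 in S1P-treated replicate 1) and standard errors of the log2 fold change between 0.06 and 0.11. One library, S1P-treated replicate 2, stood apart over the tested genes and in its mitochondrial share. Its counts differed from those of S1P-treated replicates 1 and 3 by a chi-square per gene of 31.4 and 17.9. Between S1P-treated replicates 1 and 3 this was 5.97, and between vehicle-treated samples 3.77 to 3.97. The same library had the most genes with a count, 27224 beside 22566 to 25235. In S1P-treated replicate 2, mitochondrial genes took 7.80% of the counts, against 4.10% to 4.93% in the other 5 samples, and this library held the highest level of the 6 samples for 15 members (35.7%) and the lowest for 13, against 26.6% and 26.3% of all tested genes. Values without it are given for each called member and for the other members whose log2 fold change it moved most. CD8 T cell markers were present, and Cd8a and Cd8b1, the subunits of the CD8 co-receptor, were lower after S1P, with log2 fold changes of -0.67 and -0.55. The other 4 were not called, with Cd3d at -0.28, Cd3g at -0.21, Lck at -0.04 and Cd3e at 0.15. All 4 CD4 T cell markers and all 9 B cell markers were also measured at levels that could be tested. Cd4 lay at 186 to 254 CPM (counts scaled to library size) beside 132 to 251 for Cd8a, and the summed B cell markers at 642 to 804 CPM in vehicle-treated and 653 to 746 in S1P-treated samples. The summed CD4 markers were at 229 to 272 and 252 to 319 CPM. Vehicle-treated replicate 2 differed from vehicle-treated replicates 1 and 3 in such markers. Its summed B cell markers were at 641.7 CPM, beside 802.5 and 803.5. Cd8a was at 250.6 CPM in it, beside 207.6 and 207.5, and Cd8b1 at 146.3 CPM, beside 103.5 and 101.7. Zbtb7b and Cd40lg were higher after S1P, with log2 fold changes of 0.37 and 0.50, while Cd4 at 0.10 and Foxp3 at 0.02 were not called (edgeR adjusted p = 0.487 and 0.939). Of the B cell markers 3 were lower, with Fcrla at -0.81 and Cd22 at -0.44, and Ebf1 was higher at 0.60. Of 8 myeloid markers 1 could be tested, and S100a8 and S100a9 were at 0 in every sample, while 1 of 4 NK cell markers and 0 of 6 erythroid markers could be tested, with sums of at most 3.16 and 1.02 CPM. The part of other cell types in the results on the members was not tested.

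S1P did not move the mitotic genes as a block. Of the 42 members, 7 were lower after S1P (Cdc20, Ccnb1, Espl1, Cdc25c, Cdk1, Plk1 and Ccnf) and 2 were higher (Nusap1 and Ndc80), and 33 did not pass. The call required an adjusted p no higher than 0.05 (edgeR's quasi-likelihood test) and a log2 fold change beyond 0.3 in either direction. Of all 13299 tested genes, 10.4% were called lower and 12.7% higher by the same rule, beside 16.7% and 4.76% of the members. The median log2 fold change of the members was -0.06, beside 0.01 over all tested genes, and 25 members had a negative and 17 a positive value. At the adjusted p alone, 13 members were lower and 5 higher, where the shares of all tested genes were 13.8% and 14.7%. The members added on the lower side were Ccnb2, Aurka, Bub1b, Cenpa, Kif20a and Ube2c, and those on the higher side Bub1, Pttg1 and Mki67. Without S1P-treated replicate 2 the calls were 4 lower and 2 higher (Ccnf, Cdc25c, Cdk1 and Ndc80 left and Bub1 joined the higher), and without vehicle-treated replicate 2 they were 4 lower and 3 higher. Leaving out S1P-treated replicate 1 gave 6 lower and 4 higher, since Ccnf and Plk1 left and Cenpa joined the lower, and Cenpe and Mki67 joined the higher. For 14 members (33.3%) the 95% interval of the log2 fold change lay wholly within 0.3 of 0, beside 17.9% of all tested genes. The 3 S1P-treated samples lay apart from the 3 vehicle-treated samples for 30 members, 19 of them with S1P lower and 11 with S1P higher, beside 45.6% of all genes tested whose groups did not overlap.

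**Figure D1:**
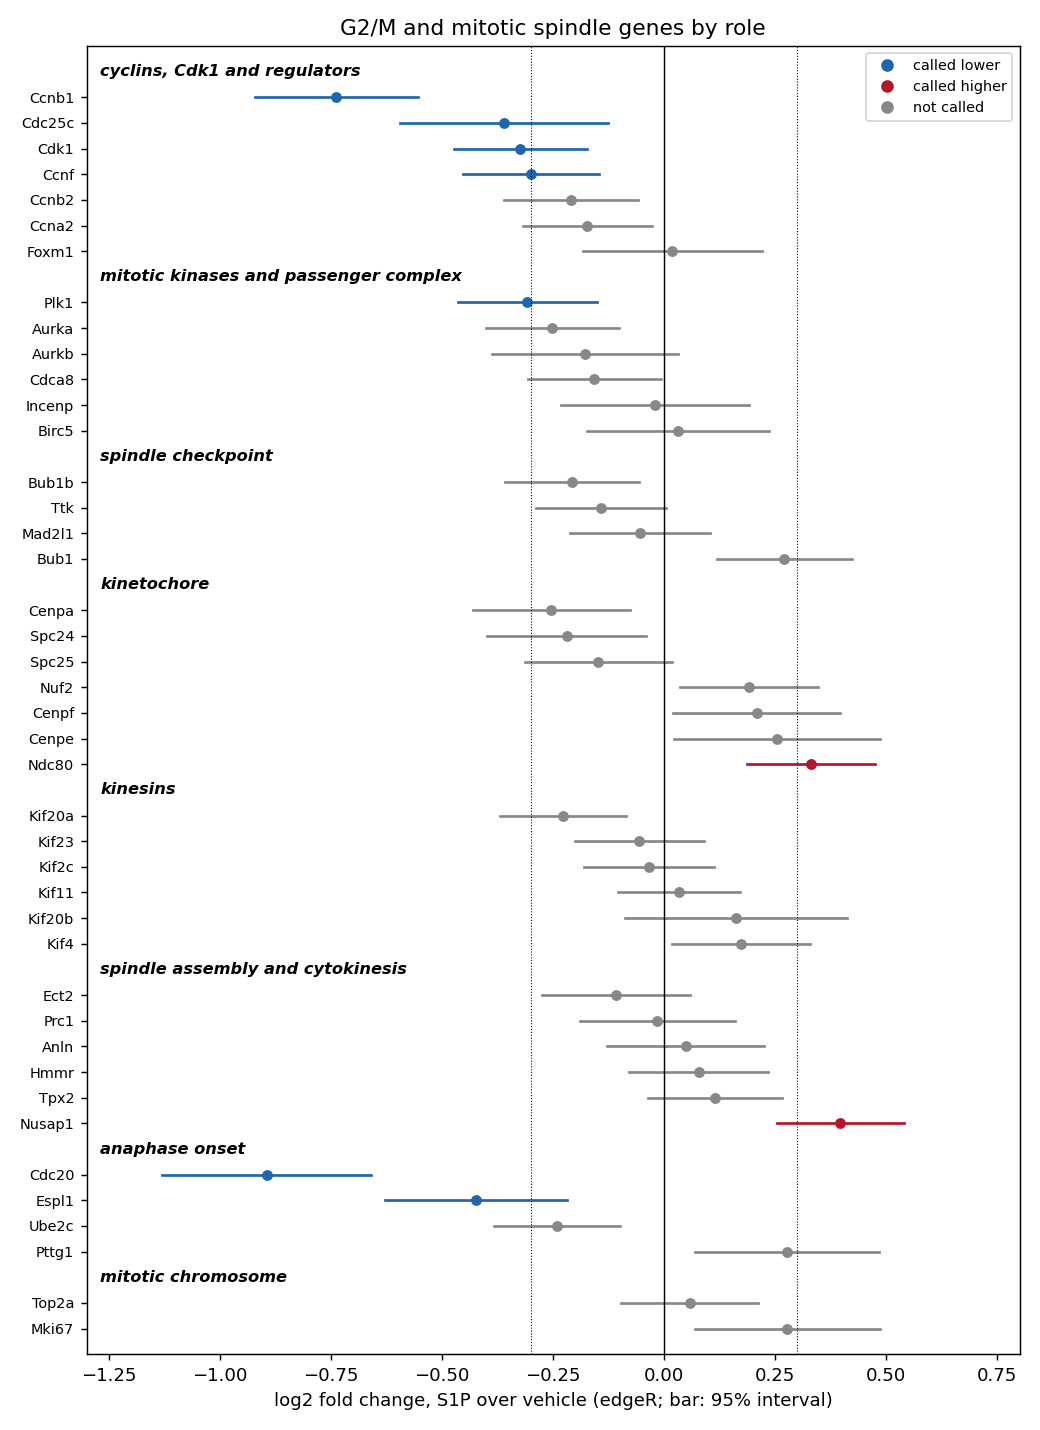
Log2 fold change of each member, S1P over vehicle, with its 95% interval from edgeR (n = 3 and 3), grouped by role. The lowest value is that of Cdc20 (-0.90) and the highest that of Nusap1 (0.40), dotted lines mark 0.3 in size, and the intervals of most members reach across or between them.

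The roles differed in their medians. The 4 anaphase genes had a median of -0.33 on the log2 fold change scale and the 7 cyclins, Cdk1 and regulators one of -0.30. Kinetochore genes had a median of 0.19, and the 6 kinesins one of -0.0011. The 6 mitotic kinases and passenger complex genes were at -0.17, the 4 spindle checkpoint genes at -0.10, the 6 genes of spindle assembly and cytokinesis at 0.06, and the 2 mitotic chromosome genes at 0.17. The kinetochore median was 0.10 without S1P-treated replicate 2 and 0.12 with an offset that corrects each library for the GC content of transcripts, which took the spindle assembly and cytokinesis median to -0.01, and the sign of the kinesin median changed between alternatives. Of the 7 members called lower, 6 belonged to the cyclin and anaphase roles. These medians were not tested against each other.

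Promoter sequences were examined because members that accumulate in G2 and M phases are known to share short elements near their start sites. RefSeq entries (build GRCm38.p6, 250 bases before to 50 after the start) were matched by symbol for 34 members and searched on both strands, beside 27025 genes with an entry. The cell cycle genes homology region (CHR), which MuvB binds, was searched as TTTGAA and as TTTAAA, and the NF-Y box as CCAAT. The first CHR form was found in 26 of 34 members (76.5%), against 20.2% of all genes, and the second in 9 (26.5%), against 14.9%. The NF-Y box was found in 25 (73.5%), against 41.1%, and either CHR form together with an NF-Y box in 24 (70.6%), against 13.4%. The E2F elements TTTGGCGC and TTTCGCGC were found in 0 and 1 member (Cdk1), against 0.585% and 0.374% of all genes, and 1 pair of matches to different motifs overlapped. All 6 members called lower that have an entry held a CHR form and an NF-Y box, and so did 18 of 26 that were not called and 0 of 2 called higher. These matches are descriptions of letters in a window. The 170 bases from 120 before to 50 after the start are shown for 3 members that fell and for both that rose, to set the windows of opposite calls side by side, with CHR and NF-Y matches on either strand in capitals.
Ccnb1: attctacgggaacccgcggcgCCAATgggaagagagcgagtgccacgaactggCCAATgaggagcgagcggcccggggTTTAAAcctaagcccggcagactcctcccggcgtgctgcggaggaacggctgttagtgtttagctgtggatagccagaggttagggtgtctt
Cdc20: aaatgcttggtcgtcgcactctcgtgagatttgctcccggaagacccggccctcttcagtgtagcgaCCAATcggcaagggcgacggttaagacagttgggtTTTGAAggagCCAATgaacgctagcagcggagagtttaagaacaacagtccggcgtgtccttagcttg
Plk1: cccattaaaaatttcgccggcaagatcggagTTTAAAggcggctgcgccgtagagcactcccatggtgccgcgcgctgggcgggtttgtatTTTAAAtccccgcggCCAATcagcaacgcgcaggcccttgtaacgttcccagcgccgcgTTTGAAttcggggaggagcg
Ndc80: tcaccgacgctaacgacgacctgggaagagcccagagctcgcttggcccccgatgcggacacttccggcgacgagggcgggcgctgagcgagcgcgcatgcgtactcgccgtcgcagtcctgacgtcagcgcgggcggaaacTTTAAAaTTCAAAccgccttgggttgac
Nusap1: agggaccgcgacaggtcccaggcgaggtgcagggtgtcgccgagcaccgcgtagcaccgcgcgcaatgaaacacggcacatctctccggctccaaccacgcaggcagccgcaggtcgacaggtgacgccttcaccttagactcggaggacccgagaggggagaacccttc
In GRCm38.p6 the windows are chr13:100786437-100786606 (Ccnb1, minus strand), chr4:118437294-118437463 (Cdc20, minus strand), chr7:122159315-122159484 (Plk1, plus strand), chr17:71526808-71526977 (Ndc80, minus strand) and chr2:119618178-119618347 (Nusap1, plus strand). The 3 windows of members that fell hold a CHR form close to an NF-Y box before the start, the Ndc80 window holds both CHR forms just after the start and no NF-Y box, and the Nusap1 window holds neither.

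**Figure D2:**
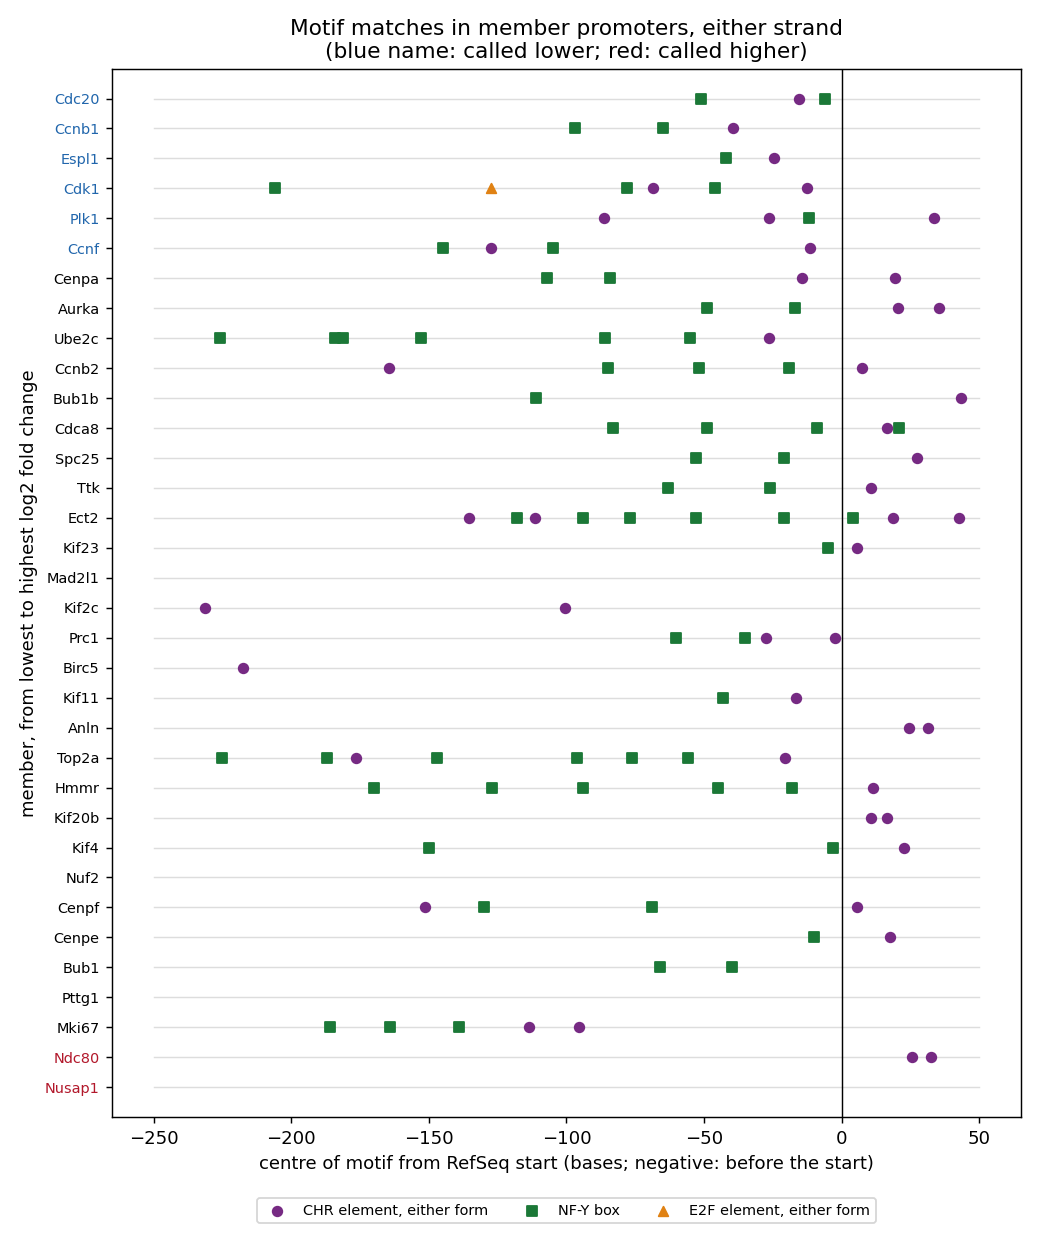
Position of CHR, NF-Y and E2F matches in the promoter entries of 34 members, as the distance of the match's centre from the RefSeq start in bases, with members ordered from the lowest to the highest log2 fold change. A CHR match lies within 60 bases of the start in 26 of the 29 members that hold any, as do 34 of all 47 CHR matches. An NF-Y match lies within the 130 bases before the start in 24 of 25 members, as do 48 of all 64 NF-Y matches. The 34 members have 36 entries, since Ect2 and Prc1 have more than 1 start, and their matches are counted once per entry.

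Among the genes of anaphase onset, the activator of the APC/C fell and separase fell, while securin, the inhibitor of separase, had a value on the other side of 0. Cdc20 (ENSMUSG00000006398, GRCm39 chr4:118290098-118294610) stood at 117, 109 and 112 CPM in vehicle-treated replicates 1, 2 and 3 and at 70.0, 48.9 and 61.9 CPM in S1P-treated replicates 1, 2 and 3. All S1P-treated samples were far below all vehicle-treated samples, and the level fell to 0.538 of that with vehicle, a log2 fold change of -0.90 ± 0.11 (SE, edgeR adjusted p = 0.000193). With S1P-treated replicate 2 left out, it was -0.77. Of the exon sequence of Cdc20, 23.7% is shared in stretches of 31 bases with other genes, chiefly the pseudogene Gm7856, and how the counting treated such reads is not given in the sources used here. Espl1 (ENSMUSG00000058290, chr15:102204701-102233535) stood at 109, 107 and 99.8 CPM with vehicle and at 87.0, 66.2 and 81.2 CPM with S1P. Its groups did not overlap, S1P-treated replicate 2 was the lowest, and the log2 fold change was -0.42 ± 0.09 (SE, edgeR adjusted p = 0.00642), or -0.32 without that replicate. Pttg1 stood at 20.2, 22.4 and 19.2 CPM with vehicle and at 25.2, 26.2 and 23.4 CPM with S1P, apart but not called, with a log2 fold change of 0.28 ± 0.09 (SE, edgeR adjusted p = 0.0475). It was called higher without vehicle-treated replicate 2. Ube2c, the ubiquitin-conjugating enzyme of the APC/C, was at 108 ± 3.98 CPM (SD, n = 3) with vehicle and 91.1 ± 2.75 with S1P, and its log2 fold change of -0.24 passed the adjusted p (0.0167, edgeR) and not the fold threshold.

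Cyclins and Cdk1 showed the same unevenness. Ccnb1, the main mitotic cyclin (ENSMUSG00000041431, chr13:100915153-100923116), was at 170, 173 and 169 CPM in vehicle-treated and at 113, 88.9 and 104 CPM in S1P-treated samples. The vehicle-treated samples were nearly equal, every S1P-treated sample was well below them, and the log2 fold change was -0.74 ± 0.08 (SE, edgeR adjusted p = 0.000135), or -0.65 without S1P-treated replicate 2. Sequence in stretches of 31 bases shared with other genes, chiefly Ccnb1-ps, makes up 23.8% of its exons. Ccnb2, the second B-type cyclin, was at 65.4, 71.6 and 68.5 CPM with vehicle and at 60.5, 58.0 and 59.0 CPM with S1P. Its groups lay apart by a smaller margin, with a log2 fold change of -0.21 at an edgeR adjusted p of 0.0403, short of the fold threshold. Ccna2, the cyclin of S and G2 phases and the most abundant of these cyclins per length, was at 301 ± 2.98 CPM with vehicle and 267 ± 15.0 with S1P (SD, n = 3) and was not called (log2 fold change -0.17, edgeR adjusted p = 0.0723).

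Cdk1 (ENSMUSG00000019942), the kinase that cyclin B activates, was at 140, 152 and 147 CPM with vehicle and at 119, 110 and 123 CPM with S1P. The groups lay apart, with a log2 fold change of -0.32 ± 0.07 (SE, edgeR adjusted p = 0.00528), close to the fold threshold and short of it at -0.28 without S1P-treated replicate 2. The study names Cdk1 among genes it picked from these samples, so its fall is not independent evidence of a direction. Cdc25c, the phosphatase that activates Cdk1, had the lowest level of the role at 17.6, 20.5 and 20.2 CPM with vehicle and 15.4, 13.7 and 16.1 CPM with S1P. Its fall of 0.36 ± 0.11 on the log2 scale (SE, edgeR adjusted p = 0.0259) was short of the fold threshold at -0.2997 without S1P-treated replicate 2. Without vehicle-treated replicate 2 or 3 the log2 fold change was -0.33 each time and the adjusted p did not pass (edgeR, 0.0911 and 0.1001). Cdc25c was called in 12 of 15 alternative fits, and exons of genes on the other strand cover 31.4% of its exon sequence. Ccnf, which encodes the F-box protein cyclin F, was at 63.5, 66.2 and 66.6 CPM with vehicle and at 51.8, 51.7 and 56.0 CPM with S1P. Its log2 fold change of -0.3002 ± 0.07 (SE, edgeR adjusted p = 0.00838) sat on the threshold itself. It was called in 8 of 15 alternative fits and stood at -0.28 without S1P-treated replicate 2. Foxm1, a transcription factor of mitotic genes, had the value nearest 0 of this role, with 82.8, 81.1 and 78.1 CPM with vehicle and 92.4, 70.0 and 82.0 CPM with S1P. The S1P-treated samples spread to both sides of the vehicle-treated ones, and the log2 fold change was 0.02 ± 0.09 (95% interval -0.18 to 0.22), or 0.12 without replicate 2.

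**Figure D3:**
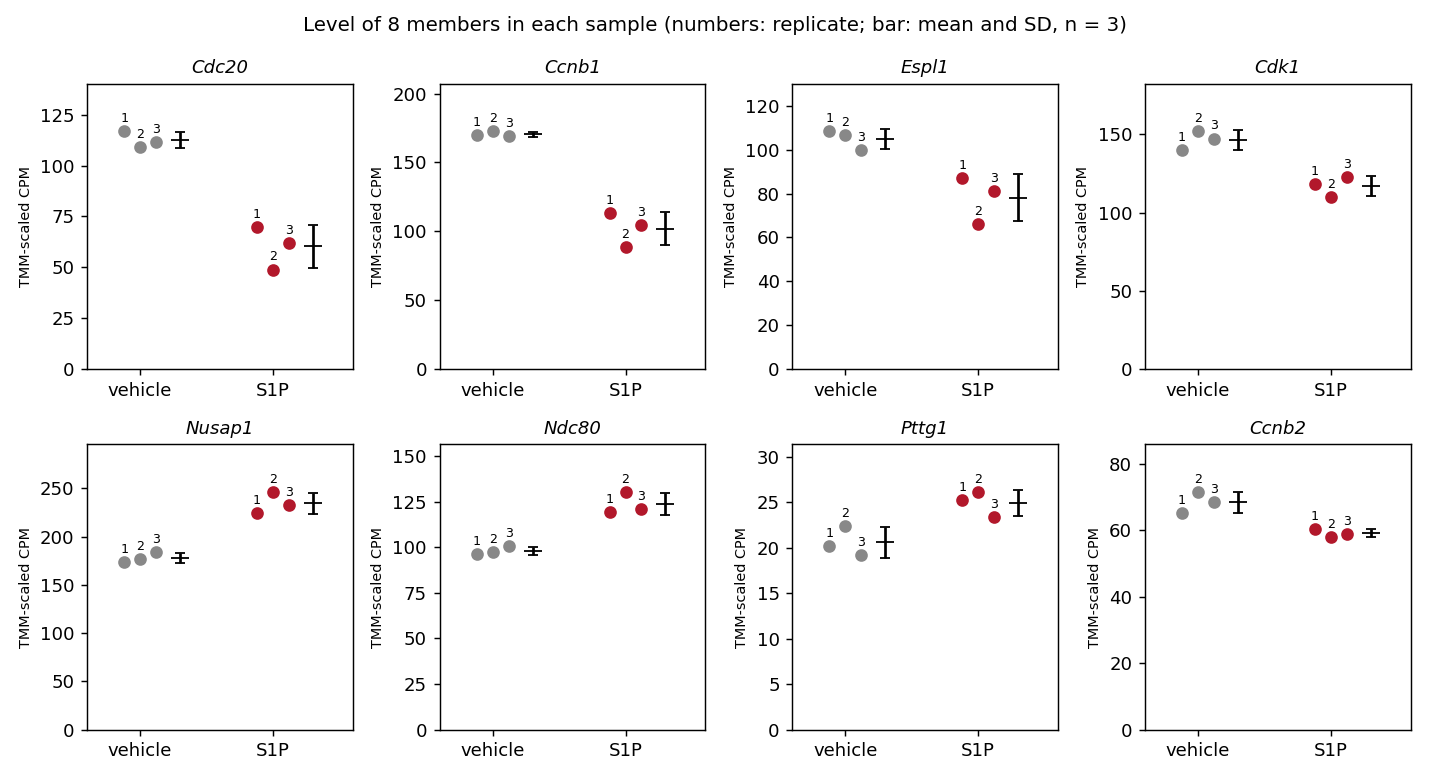
TMM-scaled CPM of 8 members in every sample, with replicate numbers beside the points and the mean and SD of each group at the side (n = 3). Cdc20 and Ccnb1 with S1P sit far under their vehicle values, Nusap1, Ndc80 and Pttg1 sit above, and in all 8 panels S1P-treated replicate 2 is the sample farthest from the vehicle mean.

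Of the mitotic kinases and the chromosomal passenger complex, Plk1 alone was called. Plk1 (ENSMUSG00000030867, chr7:121758646-121769108), a kinase of mitotic entry and spindle function, was at 89.2, 94.2 and 91.6 CPM with vehicle and at 70.6, 80.0 and 71.6 CPM with S1P. Here S1P-treated replicate 2 was the closest to vehicle, and the log2 fold change was -0.31 ± 0.07 (SE, edgeR adjusted p = 0.00812), or -0.36 without it. It was called in 10 of 15 alternative fits, and 13.7% of its exon sequence is shared with other genes, chiefly Plk-ps1. Aurka, the spindle pole kinase, was at 61.7 ± 1.37 CPM with vehicle and 51.8 ± 1.6 with S1P (SD, n = 3). Its log2 fold change was -0.25 (edgeR adjusted p = 0.0172), and 38.7% of its exon sequence lies under exons of genes on the other strand.

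The 4 genes of the passenger complex, which corrects faulty attachments, had no call. Incenp, its scaffold, was at 198, 205 and 215 CPM with vehicle and at 180, 239 and 191 CPM with S1P, with a log2 fold change of -0.02 ± 0.10 (SE). Birc5 (survivin) was at 101, 109 and 113 CPM with vehicle and at 97.3, 127 and 106 CPM with S1P, with a log2 fold change of 0.03 ± 0.09 (SE). In both genes S1P-treated replicate 2 was the highest of the 6 samples. The other S1P-treated samples of Incenp lay below all vehicle-treated ones, while those of Birc5 overlapped them, and without replicate 2 the log2 fold changes were -0.15 and -0.08. In Aurkb, the kinase of the complex, the same library was the lowest, at 84.1 CPM beside 109 and 111 in the other S1P-treated samples and 112 to 117 with vehicle, and its log2 fold change of -0.18 was -0.06 without it. Cdca8 (borealin) was at 96.7 ± 5.70 and 86.8 ± 2.44 CPM (SD, n = 3) and was not called (log2 fold change -0.16).

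Spindle checkpoint genes had 0 calls of 4 by edgeR, DESeq2 and limma-voom, where edgeR called 10.4% of all tested genes lower and 12.7% higher. The values of the 4 lay on both sides of 0, with 1 lower and 1 higher at an unadjusted p under 0.05. No share of all tested genes is given for that p. Bub1, a kinase that docks checkpoint proteins at kinetochores, was at 157, 165 and 152 CPM with vehicle and at 201, 178 and 193 CPM with S1P. Its groups lay apart with S1P above, and the log2 fold change of 0.27 ± 0.07 (SE, edgeR adjusted p = 0.0138) was under the fold threshold. Without S1P-treated replicate 2 it was 0.32, and Bub1 was called higher. Bub1b (BubR1), which with Mad2 and Bub3 holds Cdc20, was at 201, 218 and 211 CPM with vehicle and at 172, 193 and 181 CPM with S1P. This gene lay on the other side, with a log2 fold change of -0.21 ± 0.07 (SE, edgeR adjusted p = 0.0431). Mad2l1 (Mad2) was nearest to no change, with 175, 171 and 180 CPM against 154, 177 and 176 CPM and a log2 fold change of -0.05 (95% interval -0.21 to 0.10). Ttk (Mps1), the kinase that starts the signal, was at 57.9 ± 1.44 and 52.5 ± 0.511 CPM (SD, n = 3), a log2 fold change of -0.14 that was not called. Since Cdc20 fell and Mad2l1 did not pass, the ratio of Cdc20 to Mad2l1, both as CPM per kilobase of canonical transcript, stood at 0.625 ± 0.0244 with vehicle and 0.351 ± 0.0870 with S1P (SD, n = 3). Its values were 0.651, 0.621 and 0.603 with vehicle and 0.442, 0.269 and 0.342 with S1P, without overlap. This ratio and those that follow were chosen after the levels were seen and are descriptions.

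Of the Ndc80 complex, the 4-subunit rod that grips microtubules, Ndc80 was called and the other 3 subunits were not. Ndc80 (ENSMUSG00000024056, chr17:71803093-71833860) was at 96.3, 97.6 and 101 CPM with vehicle and at 119, 130 and 121 CPM with S1P. All S1P-treated samples were above all vehicle-treated ones, and the log2 fold change was 0.33 ± 0.07 (SE, edgeR adjusted p = 0.00357), or 0.29 without S1P-treated replicate 2 and 0.27 with the GC offset, both short of the fold threshold. Nuf2, its partner in the microtubule-binding arm, was at 95.6 ± 2.75 CPM with vehicle and 109 ± 7.59 with S1P (SD, n = 3), a log2 fold change of 0.19 that was not called (edgeR adjusted p = 0.0634).

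Spc24 and Spc25 form the inner arm. Spc24 was at 45.1, 45.2 and 45.8 CPM with vehicle and at 36.2, 38.0 and 42.9 CPM with S1P, with a log2 fold change of -0.22 at an edgeR adjusted p of 0.0645, and Spc25 at 48.1 ± 2.00 and 43.4 ± 2.22 CPM (SD, n = 3), with one of -0.15. For each of the 4 subunits the groups lay apart, as for 45.6% of all tested genes, with S1P above for Ndc80 and Nuf2 and below for Spc24 and Spc25, and a difference between the arms was not tested. The ratio of Ndc80 to Spc24 per kilobase was 1.36 ± 0.0197 with vehicle and 2.00 ± 0.201 with S1P (SD, n = 3), and that of Nuf2 to Spc25 was 1.07 ± 0.0153 and 1.36 ± 0.0276. Exons of Nostrin on the other strand cover 52.5% of the Spc25 exons, which bears on the second ratio.

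Among the other kinetochore genes, Cenpa, the histone that marks centromeres, was at 108, 113 and 110 CPM with vehicle and at 103, 83.2 and 91.1 CPM with S1P, with a log2 fold change of -0.25 at an edgeR adjusted p of 0.0364, or -0.34 without S1P-treated replicate 1, where it was called. Cenpe, a kinetochore motor, was at 259, 254 and 242 CPM with vehicle and at 270, 363 and 268 CPM with S1P. S1P-treated replicate 2 stood well above the other samples, and the gene was not called (log2 fold change 0.25, edgeR adjusted p = 0.0948, and 0.10 without that replicate). Cenpf was at 209 ± 11.9 and 242 ± 28 CPM (SD, n = 3), with a log2 fold change of 0.21, or 0.11 without S1P-treated replicate 2, that was not called.

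The kinesins, motors that slide and bundle microtubules, had 0 calls of 6 by edgeR, DESeq2 and limma-voom. Of all tested genes edgeR called 10.4% lower and 12.7% higher. At an unadjusted p under 0.05, 1 kinesin was lower and 1 higher, and no share of all tested genes is given for that p. Kif11 (Eg5), which pushes spindle poles apart, was at 437, 441 and 440 CPM with vehicle and at 447, 458 and 442 CPM with S1P. Its groups lay apart by a narrow margin, since the samples of each group were nearly equal, yet the log2 fold change was 0.03 with a 95% interval of -0.10 to 0.17. Kif2c (MCAK), a microtubule depolymerase, was at 69.8, 69.2 and 66.7 CPM against 67.5, 69.0 and 64.4 CPM, a log2 fold change of -0.03 (95% interval -0.18 to 0.11). Kif23, a motor of the central spindle, was at 138 ± 5.07 and 133 ± 6.12 CPM (SD, n = 3). For these 3 motors the intervals kept within the fold threshold. Kif20a, a motor of cytokinesis, was at 108 ± 0.800 and 92.1 ± 4.16 CPM, and its log2 fold change of -0.23 passed the adjusted p alone (0.0212, edgeR), but exons of Brd8 and Cdc23 on the other strand cover 61.5% of its own. Kif20b stood at 165, 238 and 180 CPM in S1P-treated replicates 1, 2 and 3 beside 165 to 182 CPM with vehicle, so that its log2 fold change of 0.16 rested on replicate 2 and was -0.01 without it. Kif4 was at 119 ± 2.78 and 135 ± 10.1 CPM (SD, n = 3), a log2 fold change of 0.17 that was not called.

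Nusap1 was the member with the clearest rise. This microtubule-bundling protein of the spindle (ENSMUSG00000027306, chr2:119448779-119481725) was at 174, 176 and 184 CPM with vehicle and at 225, 246 and 233 CPM with S1P. All S1P-treated samples were above all vehicle-treated samples, with a log2 fold change of 0.40 ± 0.07 (SE, edgeR adjusted p = 0.00124), or 0.36 without S1P-treated replicate 2. The other 5 genes of spindle assembly and cytokinesis overlapped between the groups. Prc1, which crosslinks the central spindle, was at 102, 103 and 97.8 CPM against 93.0, 112 and 95.3 CPM (log2 fold change -0.02). Anln (anillin), a scaffold of the cleavage furrow, was at 39.2, 44.1 and 40.3 CPM against 42.3, 40.2 and 45.1 CPM (log2 fold change 0.05). Tpx2, Hmmr and Ect2 had log2 fold changes of 0.11, 0.08 and -0.11, and for these 5 genes the 95% intervals lay within 0.3 of 0.

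Top2a and Mki67, which decatenate and coat mitotic chromosomes, were the most abundant members per length, at 290 and 182 CPM per kilobase of canonical transcript in vehicle-treated samples. Top2a was at 1566, 1526 and 1480 CPM with vehicle and at 1578, 1569 and 1610 CPM with S1P, a log2 fold change of 0.06 (95% interval -0.10 to 0.21). Mki67 (Ki-67), the usual marker of proliferating cells, was at 1907, 1922 and 1784 CPM with vehicle and at 2102, 2599 and 2102 CPM with S1P. Its S1P-treated samples were all above the vehicle-treated ones, replicate 2 most. The log2 fold change of 0.28 ± 0.10 (SE, edgeR adjusted p = 0.0476), or 0.17 without replicate 2, was under the fold threshold. Mki67 was called higher without S1P-treated replicate 1. These 2 genes together were at 3264 to 3473 CPM with vehicle and 3680 to 4167 CPM with S1P. The summed level of the 42 members was 8455 to 8715 CPM with vehicle and 8622 to 9473 CPM with S1P. The sum of the 4 anaphase genes was 338 to 350 CPM with vehicle and 230 to 273 CPM with S1P, and that of the 7 cyclins, Cdk1 and regulators 842 to 866 and 664 to 718 CPM, so both of these sums lay wholly below vehicle. Those of the 7 kinetochore genes (841 to 871 CPM with vehicle and 899 to 1051 with S1P) and of the 6 spindle assembly and cytokinesis genes (822 to 838 and 865 to 948 CPM) lay wholly above it. A sum follows its most abundant genes. Of the kinetochore genes 4 had a positive and 3 a negative log2 fold change. The uncalled Cenpe and Cenpf went from means of 252 and 209 CPM to 300 and 242. In the other sum Nusap1 went from 178 to 235 CPM, and the rest of its role overlapped between the groups.

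**Figure D4:**
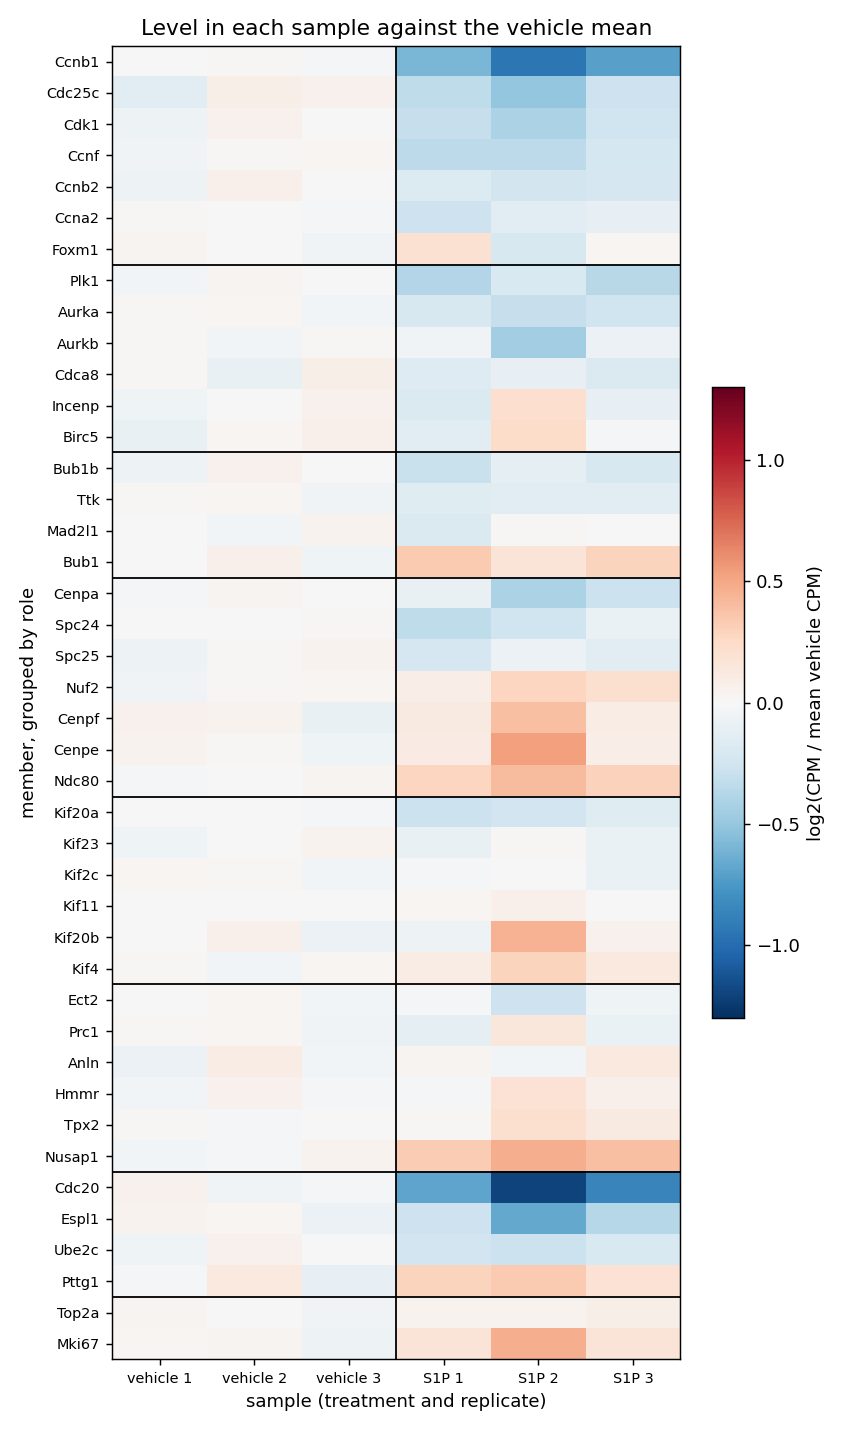
Log2 of the CPM of each member in each sample over its vehicle mean, grouped by role (black lines). The vehicle columns are nearly white, with a median coefficient of variation of 2.96% over the members, and the S1P columns, with 6.83%, are blue for Ccnb1, Cdc20 and Espl1 and red for Nusap1, Ndc80 and Bub1.

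Ratios of 2 members within a sample were compared next. On the scale of CPM per kilobase, the ratio of Ccnb1 to Ccnb2 was 1.62, 1.5 and 1.54 with vehicle and 1.16, 0.956 and 1.10 with S1P. The ratio of Ccnb1 to Top2a was 0.225, 0.235 and 0.238 with vehicle and 0.148, 0.118 and 0.134 with S1P. For separase over securin, Espl1 to Pttg1, it was 0.554, 0.490 and 0.536 with vehicle and 0.356, 0.261 and 0.357 with S1P. None of these 3 ratios overlapped between the groups, and such ratios do not depend on library scaling. Aurkb to Incenp gave 1.77 ± 0.0797 with vehicle and 1.63 ± 0.449 with S1P (SD, n = 3), which overlapped.

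In order of level per length with vehicle, Top2a and Mki67 were followed by Ube2c (111 CPM per kilobase), Birc5 (110) and Ccna2 (101), and the order ended with Espl1 (14.2), Cdc25c (9.85) and Anln (7.45). Ccnb1 and Cdc20 held places 9 and 10 with vehicle, at 67.5 and 60.7 CPM per kilobase, and were at 40.4 and 32.5 with S1P. The log2 fold changes of the members went with the GC content of their exons, as a description across 42 genes that share the same libraries (Pearson r = -0.54, Spearman rho = -0.61), where the correlation over 13260 tested genes was -0.11 (rho = -0.16). Without S1P-treated replicate 2 the values were -0.52 for the members and -0.06 for all genes. The 14 members of the highest GC content (49.2% to 55.2%) had -0.23 as their median log2 fold change, with 5 lower and 0 higher. The 14 of the lowest (38.5% to 43.2%) had one of 0.07 with 1 lower, Ccnb1, and 2 higher, Ndc80 and Nusap1. Of all tested genes, whatever their GC content, 10.4% were called lower and 12.7% higher. A fit with an offset for GC content in each library left 5 members lower and 1 higher, with Ccnf, Plk1 and Ndc80 short of the fold threshold, and Cdc20, Ccnb1, Espl1 and Nusap1 at -0.83, -0.80, -0.36 and 0.33.

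Other genes of the cell cycle were set beside the members by lists written from general knowledge. Of 47 further G2/M kinases, motors and spindle genes, 5 were lower and 5 higher (10.6% in each direction, near the 10.4% and 12.7% of all tested genes), with a median log2 fold change of -0.05. The higher count was 2 with total count scaling, with no filter on low counts and without vehicle-treated replicate 3, and it was 3 with DESeq2 and when S1P-treated replicate 1 or 2 was left out. At the adjusted p alone 9 were lower. Kpna2, an importin, fell from 421 ± 4.27 to 283 ± 15.7 CPM (SD, n = 3, log2 fold change -0.57, edgeR adjusted p = 0.000158), and Nek2, a centrosome kinase, from 67.3 ± 1.25 to 48.8 ± 0.726 CPM (-0.47, edgeR adjusted p = 0.000539). Neil3, a DNA glycosylase, rose from 36.0 ± 1.01 to 54.0 ± 5.83 CPM (0.59, edgeR adjusted p = 0.000774), and Mastl (Greatwall), a kinase that protects mitotic phosphorylation, from 41.8 ± 0.838 to 54.8 ± 3.96 CPM (0.39, edgeR adjusted p = 0.00334). Of 36 further kinetochore and centromere genes 1 fell and 1 rose (2.78% in each direction), with a median of 0.06, and 2 fell and 5 rose without S1P-treated replicate 1. Hjurp, the chaperone that loads Cenpa, rose with a log2 fold change of 0.48 at an edgeR adjusted p of 0.00178, and Bub3, the checkpoint partner of Bub1 and Bub1b, fell with one of -0.34 (edgeR adjusted p = 0.00327).

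Of 16 APC/C subunits and partners 1 fell (6.25%) and 0 rose, beside 10.4% and 12.7% of all tested genes. This was Ube2s, the enzyme that extends the ubiquitin chains, with a log2 fold change of -0.41 at an edgeR adjusted p of 0.00673. Of 20 condensin and cohesin genes 0 were called by edgeR, beside 10.4% lower and 12.7% higher of all tested genes. At the adjusted p alone 3 were higher, beside 14.7% of all tested genes. At an unadjusted p under 0.05, 1 was lower and 6 higher, and DESeq2 called 1 higher. Without S1P-treated replicate 1, 4 of these genes were called higher, and 2 APC/C genes were called in each direction. No share of all tested genes is given for that fit, for DESeq2 or for the unadjusted p. Of 21 genes of MuvB, E2F, RB and NF-Y, 4 fell (19.0%) and 0 rose, beside 10.4% and 12.7% of all tested genes, with a median of 0.0023. At the adjusted p alone 5 were lower and 3 higher, where the shares of all tested genes were 13.8% and 14.7%. With vehicle-treated replicate 1 left out 3 rose, and with S1P-treated replicate 3 left out 2 rose. Tfdp1, the partner of E2F factors, and Nfyc, a subunit of NF-Y, had log2 fold changes of -0.36 and -0.39 (edgeR adjusted p = 0.00171 and 0.00365). Of 51 S-phase genes 7 fell (13.7%, beside 10.4% of all tested genes) and 0 rose (beside 12.7%), with a median of -0.11. DESeq2 called 9 lower and limma-voom 8. At the adjusted p alone 11 were lower and 0 higher, where the shares of all tested genes were 13.8% and 14.7%. Among the 7 that fell by both thresholds were the replicative helicase subunit Mcm2 at -0.38 and the cyclin Ccne1 at -0.44 (edgeR adjusted p = 0.00202 and 0.00221). Of 13 G1 genes 9 could be tested and 3 rose (33.3%, beside 12.7% of all tested genes), all inhibitors of cyclin-dependent kinases. A further inhibitor, Cdkn2c, was not called (log2 fold change 0.08). At the adjusted p alone 2 of the 9 were lower, Ccnd2 at -0.27 and Cdk4 at -0.26. Cdkn1b (p27) rose from 55.8 ± 4.22 to 122 ± 5.17 CPM and Cdkn1a (p21) from 39.1 ± 3.71 to 81.5 ± 8.09 CPM (SD, n = 3), with log2 fold changes of 1.13 and 1.06, larger in size than that of any of the 42 members.

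**Figure D5:**
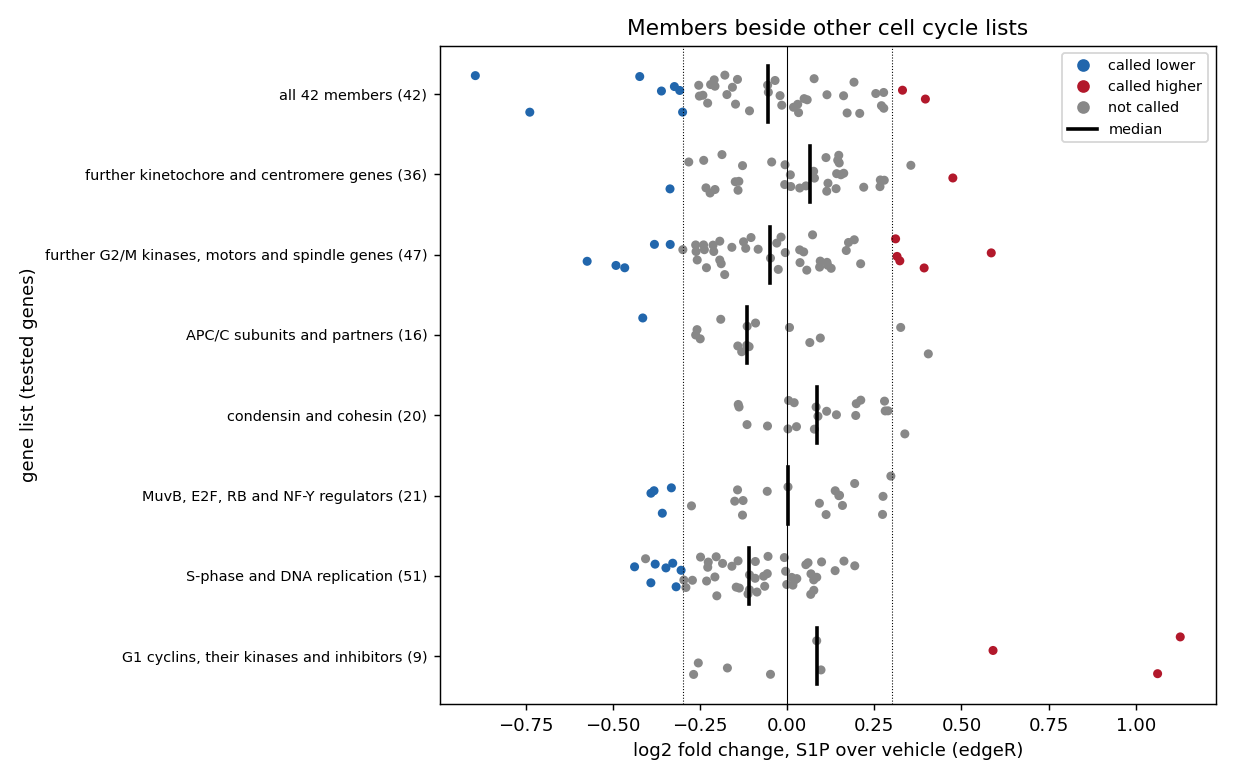
Log2 fold change of each tested gene in the members and in 7 other cell cycle lists, with the number tested beside each name and the median as a black bar. Every list has genes on both sides of 0, list medians run from -0.12 to 0.09, and the values over 1 belong to Cdkn1a and Cdkn1b.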

How the data were processed

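Polyadenylated RNA was measured in 3 vehicle-treated and 3 S1P-treated samples. The deposited values are raw counts per gene, which the authors made by trimming with Trim Galore, alignment with STAR and counting with featureCounts (GRCm39, per the labels). Versions and the settings for strand and for reads with several matches are not given in the sources used here, so overlapping and duplicated exons may affect counts. All 6 columns were used. Counts were filtered with filterByExpr, scaled with TMM factors and entered into the quasi-likelihood test of edgeR 4.0.16 under R 4.3.3, treatment being the only term, with Benjamini-Hochberg adjustment over 13299 genes. The model was first tested on simulated data. CPM denotes counts scaled to library size with TMM factors. Positions, GC content and lengths came from GENCODE vM39, and promoters from RefSeq. Alternatives included DESeq2 1.42.0, limma-voom (limma 3.58.1), other scaling factors and filters, a GC offset, a replicate block and the fit without each library. Shares of all tested genes are those of the edgeR fit to all 6 samples. Counts in the alternatives and at an unadjusted p have no such share beside them. Samples are labelled biological replicates, but whether they came from separate mice is not given, so p-values measure the spread between these samples.

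The members, lists and tests were chosen with earlier results of these data known. Every member was to be accounted for, with values per sample for each called member and for up to 3 per role nearest to no change, and of each other list up to 2 genes per direction with the smallest p were to be named. Further genes and the ratios were chosen after their values were seen.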

Additional observations from a re-analysis of the deposited data

How the results depend on the processing

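Of the 15 alternative fits, each kept Cdc20, Ccnb1 and Espl1 lower and Nusap1 higher by both thresholds. The count of members called lower went from 7 to 13 at the adjusted p alone and lay between 4 and 7 when each library was left out, with 4 both without vehicle-treated replicate 2 (Ccnf, Cdc25c and Plk1 no longer called) and without S1P-treated replicate 2 (Ccnf, Cdc25c and Cdk1 no longer called). The count called higher went from 2 to 5 at the adjusted p alone, to 1 with no filter on low counts, with the GC offset and with the replicate block and GC offset together (Ndc80 no longer called), and lay between 2 and 4 with a library left out, the 4 without S1P-treated replicate 1, where Cenpe and Mki67 joined. The median log2 fold change ran from -0.12 (GC offset) to -0.05. Whether replicate numbers pair the samples is not given. Same-numbered deviations from the group means correlated at 0.12, -0.006 and 0.05, and differently numbered ones at -0.10 to 0.05. Such small correlations cannot decide whether the samples were paired. With the replicate block alone 7 members were lower and 2 higher, and block with GC offset gave 5 and 1. Why these counts moved was not tested beyond what each setting removes.

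Over 630 values of single members, 24 from 9 uncalled members reversed in sign. Of these, Kif20b had a log2 fold change of 0.16 and reversed in the fit without S1P-treated replicate 2 alone. Foxm1 was -0.0015 with DESeq2, -0.0051 with total count only and -0.0079 with no filter on low counts, and Birc5 -0.0012 and -0.0037 with the last 2 settings. With the GC offset Incenp was 0.0089, Kif11 -0.042, Anln -0.025 and Top2a -0.015, and with the replicate block and GC offset Kif11 was -0.0424, Anln -0.026 and Top2a -0.016. With each library left out, values ran from -0.086 to 0.12 for Foxm1, -0.080 to 0.11 for Birc5, -0.15 to 0.059 for Incenp, -0.093 to 0.0085 for Mad2l1, -0.0062 to 0.27 for Kif20b, -0.10 to 0.035 for Prc1 and -0.0024 to 0.094 for Anln.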
